A study of Mus musculus with 5 samples.

Results

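The natriuretic peptide system of the reperfused mouse heart was described through 9 genes, taken by symbol from the 22180 genes that had a probe with exactly 1 gene symbol. They were the peptide genes Nppa, Nppb and Nppc, the receptor genes Npr1, Npr2 and Npr3, and the processing and storage genes Corin, Furin and Pam. All 9 lay above the level filter and were among the 15294 genes tested. The antagonist group was 3 hearts of wild-type C57Bl6J mice that had been injected intraperitoneally with a REV-ERB alpha antagonist 4 h and again 1 h before perfusion. The labels state its dose as a concentration, 10 µM. The sham group was 2 hearts of wild-type C57Bl6J mice without the antagonist. Every heart was taken at zeitgeber time 12 (hours after lights on) and perfused on a Langendorff apparatus, which supplies the isolated heart with buffer through the aorta. All of them, sham included, had 20 min of stabilisation, 20 min without flow and 20 min of reperfusion, so no value describes a heart that was spared ischemia. The labels name neither the compound, nor a vehicle given to sham mice, nor the animals' age and sex, nor which chambers of the heart were frozen. RNA of each heart was measured on 1 Affymetrix array, and the values are log2 expression.

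Natriuretic peptides are hormones of the heart that lower blood pressure by promoting salt excretion and vessel relaxation. Atrial natriuretic peptide, encoded by Nppa, is stored as a precursor in granules of atrial muscle and is cut by the membrane protease corin as it is released, while B-type natriuretic peptide, encoded by Nppb, is made by atrial and ventricular muscle under stretch. C-type natriuretic peptide, encoded by Nppc, is mostly a product of the vessel wall. Npr1 encodes the receptor of the atrial and B-type peptides and Npr2 that of the C-type peptide. Both receptors make the messenger cGMP, whereas the product of Npr3 takes up the peptides and clears them. Furin is a convertase that cuts many precursors, the B-type one among them, and Pam encodes an amidating enzyme that is a major membrane protein of atrial granules.

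Nppb and Nppa are neighbours on mouse chromosome 4, with 14822 bases between their starts, and they were the members whose values set the groups and single hearts apart most plainly. The 250 bases before each start are therefore shown, 5′ to 3′ on the plus strand, from RefSeq (build GRCm38.p6). The Nppb window is chr4:147985650-147985899 and the Nppa window chr4:148000472-148000721. Capitals mark matches, on either strand, to GATAA (the core bound by GATA factors), TNAAGTG (bound by NKX2-5), CATTCC (the M-CAT element), GGTGTG (a T-box core), AGGTCA (the core element of many nuclear receptors) and the CArG box.
Nppb: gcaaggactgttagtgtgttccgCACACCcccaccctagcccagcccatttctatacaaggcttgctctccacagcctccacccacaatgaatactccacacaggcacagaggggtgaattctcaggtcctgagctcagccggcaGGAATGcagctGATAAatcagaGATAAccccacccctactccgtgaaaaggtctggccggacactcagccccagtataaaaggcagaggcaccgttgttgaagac
Nppa: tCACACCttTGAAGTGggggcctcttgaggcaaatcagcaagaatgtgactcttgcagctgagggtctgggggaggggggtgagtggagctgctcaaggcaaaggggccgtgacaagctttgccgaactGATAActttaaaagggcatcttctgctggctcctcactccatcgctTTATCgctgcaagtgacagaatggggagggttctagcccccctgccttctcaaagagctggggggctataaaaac

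Each window held 2 GATA matches. Those of Nppb began 94 and 83 bases before the start and those of Nppa 121 and 75 bases before it. Of the 32851 promoter windows of the same length in the table, 22.6% held at least 1 GATA match and 4.28% at least 2. Nppb also had an M-CAT match 105 bases before the start (12.6% of windows hold one) and a T-box match at 227 bases. Nppa had a T-box match at 249 bases (16.3% of windows) and an NKX2-5 match at 241 bases (10.1%). AGGTCA, which 14% of windows hold, and the CArG box, which 1.47% hold, did not occur in either window. Among the other 7 members, Corin and Furin had 1 match each, a T-box core in Corin 202 bases and an NKX2-5 match in Furin 206 bases before the start. Another Furin window, from a different start, held 0 matches. These are matches of letters and were not tied to any binding data. The motifs were a fixed list and the printed windows were picked from expression values, so the shares beside them do not test enrichment.

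Heart muscle genes were even across the hearts, while antagonist replicate 2 and sham replicate 1 stood apart in other respects. The 7 heart muscle markers, which include Myh6, Tnnt2 and Actc1, averaged between 12.14 and 12.18 on the antagonist arrays and 12.15 and 12.18 on the sham arrays. Antagonist replicate 2 was the highest array for 7 of 10 atrial muscle markers, 5 of 8 adipocyte markers and 8 of 9 mesothelial markers, against 14.8% of all tested genes. The mean level of the 10 atrial markers was 6.29, 7.66 and 6.01 on antagonist arrays 1, 2 and 3, and 5.88 and 6.16 on the sham arrays. In RNA of whole tissue, more cells of a type and more RNA per cell cannot be told apart. Sham replicate 1 lay farthest out on the first principal component, at 20.6, whereas the antagonist arrays lay between -13.98 and -1.59 and sham replicate 2 at -0.22. Array medians were 3.93 to 3.94 in the antagonist group and 3.92 to 3.95 in the sham group. The labels call the arrays biological replicates, and their small number limits the precision of every comparison.

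The comparison of antagonist with sham hearts addresses whether transcripts of the system differ in the reperfused heart after the injections. The antagonist is directed at REV-ERB alpha, a repressor of the circadian clock, and whether that receptor was blocked in these hearts was not tested. Nppb was higher in every antagonist heart than in either sham heart. Nppa, Npr3 and Pam owed their higher antagonist means mainly to 1 heart, antagonist replicate 2, and Corin and Furin theirs to a low value in sham replicate 1. The difference of Npr3 also vanished without sham replicate 1 (-0.0024). Nppc, Npr1 and Npr2 varied little, with ranges of 0.18 to 0.20 over the 5 arrays. None of the 9 members passed an adjusted p under 0.05 with limma (two-sided, Benjamini-Hochberg over 15294 genes), where 0% of all tested genes did, and the smallest adjusted p among them was 0.64. At an unadjusted p under 0.05 there was 1 member, Nppb, in a table where 4.6% of genes reached it. The difference was positive for 7 of the 9 members, with a median of 0.18 on the log2 scale, against 47.7% of tested genes and a median of 0. Without antagonist replicate 2 it was positive for 4 of 9 members (45.8% of tested genes), their median was -0.00072, and 0 of 9 had an unadjusted p under 0.05 with limma (3.84% of tested genes). Every antagonist value lay above both sham values for 1 of 9 members (6.19% of tested genes) and below both for 0 of 9 (6.33%), so these counts are near the background. With antagonist replicates 1 and 3 alone, 1 member lay above both sham hearts (Nppb; 8.76% of tested genes) and 1 below (Npr1; 8.87%). For Npr1 that placement rests on antagonist replicate 3 and sham replicate 2, which both measured 5.46 at the precision given.

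**Figure D1:**
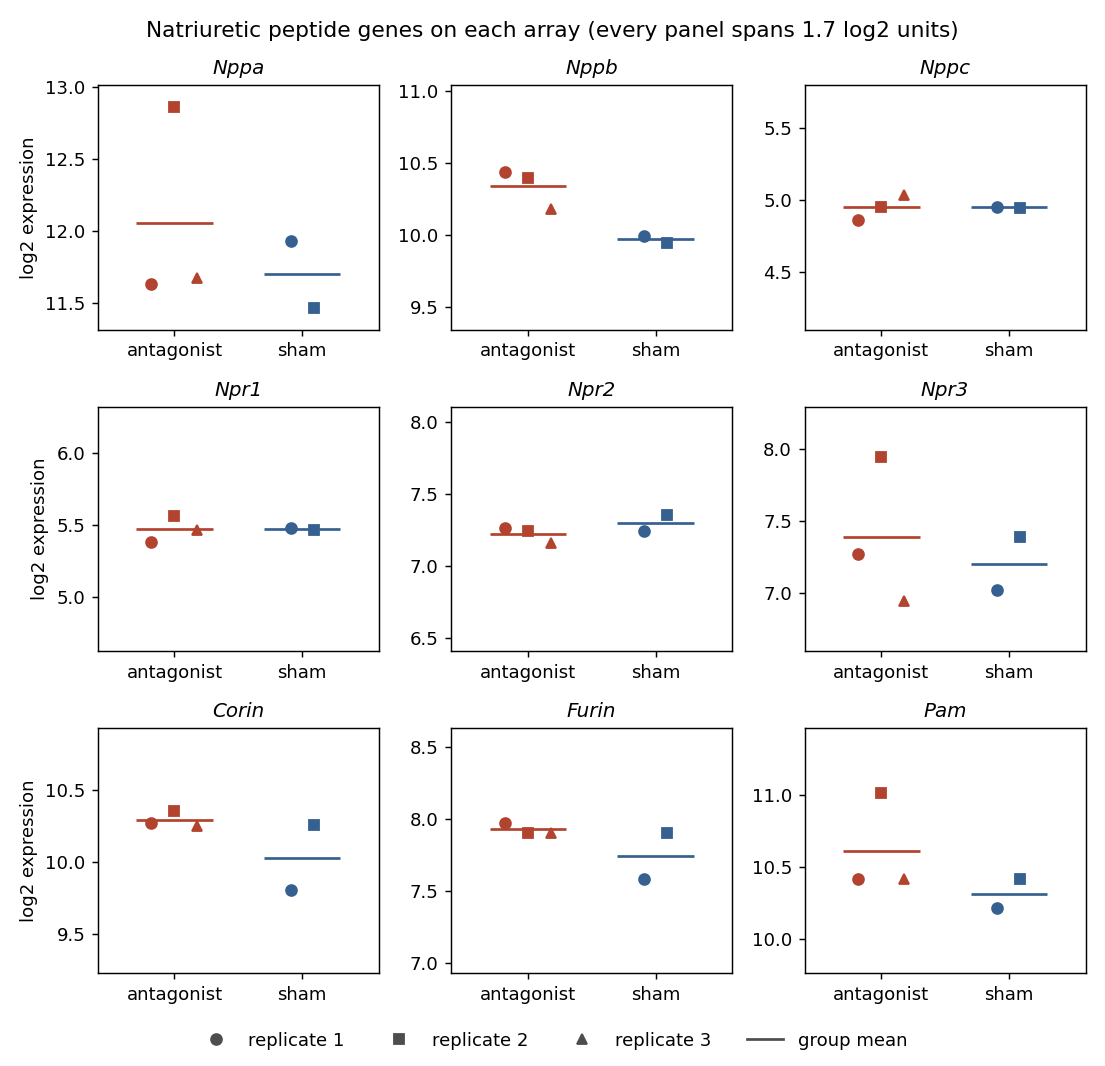
Log2 expression of the 9 genes on each array, with antagonist hearts on the left and sham hearts on the right of each panel. Symbols give the replicate number, lines the group means, and every panel spans the same height. Nppb is the panel in which the 3 antagonist points all lie above the 2 sham points, and Nppa, Npr3 and Pam show antagonist replicate 2 (square) above all other hearts.

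Nppb, the B-type peptide gene (Entrez Gene 18158), measured 10.44, 10.40 and 10.18 on the antagonist arrays and 10.00 and 9.94 on the sham arrays. The groups did not overlap, and antagonist replicate 3 came nearest to the sham hearts. The antagonist mean was 10.34 ± 0.14 (SD, n = 3), against a sham mean of 9.97 ± 0.04 (SD, n = 2). The difference was 0.37 ± 0.10 (SE) on the log2 scale, or 1.29-fold, with an unadjusted 95% interval of 0.10 to 0.64. Its limma adjusted p over all genes was 0.64 (unadjusted p 0.021), and an exact permutation test (two-sided, all 10 ways to divide 5 arrays into 3 and 2) gave p = 0.20, where 0.10 is the smallest this design allows. With each array left out in turn the difference lay between 0.32 and 0.45. Of all tested genes 3.21% differed by at least as much in either direction.

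Nppa, the atrial peptide gene (Entrez Gene 230899), measured 11.63, 12.86 and 11.67 on the antagonist arrays and 11.93 and 11.47 on the sham arrays. Antagonist replicate 2 was the highest of all, and the other 2 antagonist hearts lay between the sham hearts. The antagonist mean was 12.06 ± 0.70 (SD, n = 3), against a sham mean of 11.70 ± 0.33 (SD, n = 2). They differed by 0.36 ± 0.49 (SE; limma adjusted p 0.76), with an interval of -1.06 to 1.78. That is nearly the same difference as for Nppb with an SE several times as large. Without antagonist replicate 2 the difference was -0.044 ± 0.20 (SE). On that array Nppa was 2.27-fold above the mean of the other 4, a gap that 0.347% of tested genes reached, while Nppb was 1.20-fold above it.

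Nppc, the C-type peptide gene, measured 4.86, 4.95 and 5.04 on the antagonist arrays and 4.95 and 4.94 on the sham arrays. Both sham values lay inside the antagonist range. The log2 difference was 0.00098 ± 0.060 (SE), with an interval of -0.17 to 0.17. Detection calls were not used here, and whether so low a value is above background was not tested.

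**Figure D2:**
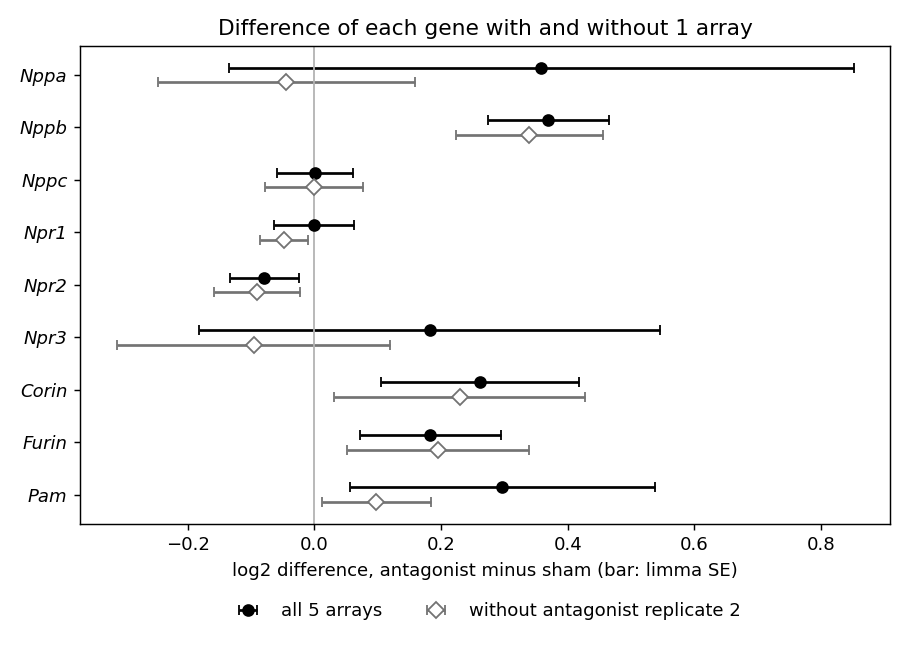
Log2 difference, antagonist minus sham, of each of the 9 genes from limma, with its SE as a bar. Filled circles use all 5 arrays and open diamonds leave out antagonist replicate 2. Without that array Nppa goes to -0.044 and Npr3 to -0.10, while Nppb stays at 0.34.

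Npr3, the gene of the clearance receptor, varied most among the receptors. It measured 7.27, 7.94 and 6.95 on the antagonist arrays and 7.02 and 7.39 on the sham arrays. Antagonist hearts held both the highest value (replicate 2) and the lowest (replicate 3), so the groups overlapped fully. The log2 difference was 0.18 ± 0.36 (SE; limma adjusted p 0.84) with an interval of -0.86 to 1.23. It was -0.10 without antagonist replicate 2 and -0.0024 without sham replicate 1. On antagonist replicate 2 the gene was 1.72-fold above the mean of the other 4 arrays, a gap that 0.641% of tested genes reached.

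The receptors that make cGMP were even on their main probes. Npr1, the receptor gene of the atrial and B-type peptides, measured 5.38, 5.56 and 5.46 on the antagonist arrays and 5.48 and 5.46 on the sham arrays. Its log2 difference was -0.00089 ± 0.063 (SE), with an interval of -0.18 to 0.18. A second, dimmer Npr1 probe gave means of 4.24 with the antagonist and 4.13 in sham, a difference of 0.11. Whether so dim a probe is above background was not tested. Npr2, the receptor gene of the C-type peptide, measured 7.26, 7.25 and 7.16 on the antagonist arrays and 7.25 and 7.36 on the sham arrays. Its difference was -0.08 ± 0.05 (SE; limma adjusted p 0.64), lower in the antagonist hearts with overlapping groups. It was -0.13 without sham replicate 1 and -0.02 without sham replicate 2.

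Corin and Furin, the genes of the proteases that cut the precursors, shared a pattern in which sham replicate 1 was low and the other 4 hearts lay close together. Corin measured 10.27, 10.35 and 10.25 on the antagonist arrays and 9.80 and 10.25 on the sham arrays. Sham replicate 2 lay between antagonist replicates 3 and 1, so the groups overlapped. Furin measured 7.98, 7.91 and 7.91 on the antagonist arrays and 7.59 and 7.91 on the sham arrays, with an equal value on 3 arrays. The differences were 0.26 ± 0.16 for Corin and 0.18 ± 0.11 for Furin (SE; limma adjusted p 0.64 for each). Set against sham replicate 2 alone they were 0.04 and 0.02, and against sham replicate 1 alone 0.49 and 0.34. With a lone sham array the spread of that group cannot be estimated. Of all tested genes 25.9% had their lowest value on sham replicate 1 alone, as Corin, Furin and Pam did among the 9 members.

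Pam, the amidating enzyme gene, combined both patterns. It measured 10.42, 11.01 and 10.42 on the antagonist arrays and 10.22 and 10.42 on the sham arrays. Antagonist replicate 2 was high, sham replicate 1 low, and the other 3 arrays had the same value. The log2 difference was 0.30 ± 0.24 (SE; limma adjusted p 0.65), or 0.10 ± 0.09 (SE) without antagonist replicate 2. On that array Pam was 1.57-fold above the mean of the others, a gap that 0.981% of tested genes reached.

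Antagonist replicate 2 was the highest array for 5 of the 9 members, Nppa, Npr1, Npr3, Corin and Pam, where 14.8% of tested genes peaked there. It exceeded the mean of the 4 other arrays by 1.18 for Nppa, 0.79 for Npr3 and 0.65 for Pam on the log2 scale. This excess was 0.26 for Nppb, 0.21 for Corin and 0.12 or less for the other 4. The median excess was 0.71 for the 10 atrial muscle markers, with Bmp10, a growth factor gene of atrial muscle, at 5.95, the calcium pump regulator Sln at 3.13 and the light chain gene Myl7 at 2.86. Of the other 7 atrial markers, Dkk3 (2.19), Cacna2d2 (0.96) and Kcnj3 (0.47) also exceeded the other arrays there, and Myl4, Kcna5, Gja5 and Nr2f2 lay between -0.01 and 0.06. Bmp10 measured 5.88, 10.86 and 5.57 on the antagonist arrays and 3.42 and 4.81 on the sham arrays. It was the 1 of 10 atrial markers above both sham hearts on every antagonist array (6.19% of tested genes). Its difference was 3.33 ± 2.05 (SE; limma adjusted p 0.64), a size that 0.0065% of tested genes reached. Without antagonist replicate 2 it was 1.61, and the groups still did not overlap. The 4 ventricular markers Myl2, Myl3, Irx4 and Hey2 had excesses of -0.01 to -0.11. Between the groups, 2 of these 4 lay below both sham hearts on every antagonist array (6.33% of tested genes). They were Irx4 (difference -0.23) and Hey2 (-0.22, limma adjusted p 0.60), while Myl2 and Myl3 overlapped. Hey2 had an equal value, 6.28, on every antagonist array, so its small p rests on a tie. The median excess was 1.08 for 8 adipocyte markers, led by Ucp1 (3.07) and Cidec (2.86), and 0.57 for 9 mesothelial markers, led by Upk3b (1.75) and Upk1b (1.45). The adipocyte markers were split, and Fabp4 (0.03), Pparg (0.08) and Lep (0.09), singled out after their values were seen, hardly exceeded the other arrays. Adipoq and Muc16, defining genes of fat and mesothelium, were below the level filter. Every antagonist value lay above both sham values for 2 of the 8 adipocyte and 1 of the 9 mesothelial markers (6.19% of tested genes). The median excess was 0.02 for 9 markers of endothelium and endocardium, of which Plvap (0.75) and Vwf (0.48) varied most. The part of these cell types in the values of Nppa, Npr3 and Pam was not tested.

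**Figure D3:**
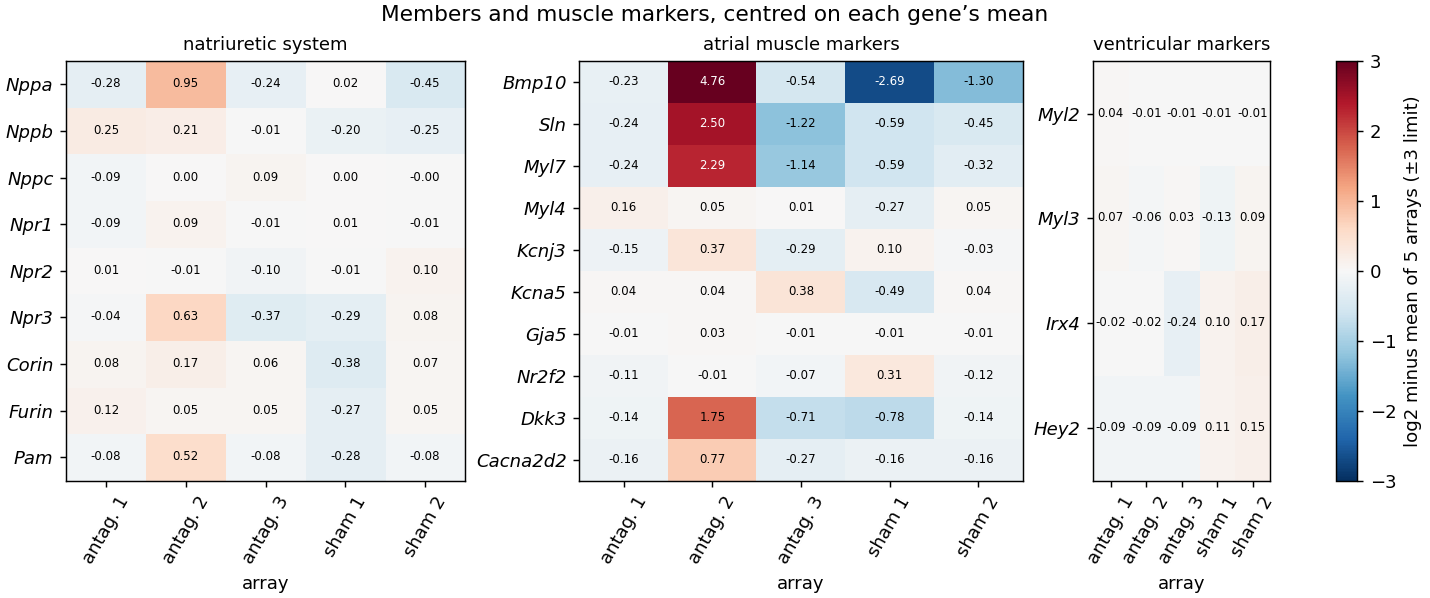
Log2 values minus each gene's mean over the 5 arrays, for the 9 genes, 10 atrial muscle markers and 4 ventricular markers, with the antagonist arrays left of the sham arrays. Numbers give the centred value, and the colour scale ends at 3 in either direction. The column of antagonist replicate 2 is high for Nppa (0.95), Npr3 (0.63) and Pam (0.52) as well as for Bmp10, Sln, Myl7 and Dkk3, and near 0 for the ventricular markers.

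Likeness of profile was measured as the root-mean-square distance over the 5 arrays after each gene's own mean had been subtracted, so 0 means the same profile. Corin and Furin were 0.08 apart, Npr3 and Pam 0.16, Nppa and Pam 0.31, and Nppa and Nppb 0.44. For the 4 members with a range of at least 0.5 over the arrays, the 5 nearest of 2086 named genes with at least that range were taken. Those of Nppa were Stard10, Alox8, Tat, Birc3 and Rxfp1 (0.15 to 0.17), each highest on antagonist replicate 2. Those of Npr3 were Arrdc4, Myl1, Tbc1d1, Relb and Zc3h12a (0.08 to 0.10). Those of Corin were Trim59, Emc7, Ctnnal1, Tm2d2 and Tppp (0.01 to 0.02), each lowest on sham replicate 1. Those of Pam were Tppp3, Vdr, Car13, Tnip1 and Cxcl16 (0.02 to 0.04). With 5 arrays and 2086 candidates such likeness is a description of these hearts.

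The wider pathway was represented by 60 further genes in 6 lists, of which 48 were tested. With limma 0 of the 48 passed an adjusted p under 0.05 (0% of all tested genes) and 0 had an unadjusted p under 0.05 (4.6%). In sign they were balanced, with 23 higher and 24 lower under the antagonist and a median difference of -0.00045. The groups did not overlap for 1 of the 48 above (6.19% of tested genes) and 6 of the 48 below (6.33%). The share above was thus smaller, and the share below larger, than over all tested genes. That asymmetry was not tested.

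Soluble guanylyl cyclase makes cGMP in answer to nitric oxide, beside the natriuretic receptors. All 3 of its measured subunit genes were lower, with a median of -0.19, where 7078 of 15294 tested genes were lower. Gucy1a2 measured 5.87, 5.85 and 5.98 on the antagonist arrays and 6.23 and 6.02 on the sham arrays. Its groups did not overlap (difference -0.23 ± 0.09, SE; limma adjusted p 0.64), and neither did those of Gucy1a1 (-0.19 ± 0.09, SE), while those of Gucy1b1 did (-0.11 ± 0.07, SE). Thus 2 of the 3 lay below both sham hearts on every antagonist array (6.33% of tested genes). Of 13 tested effectors and phosphodiesterases 4 were higher, 8 lower and 1 equal, with a median of -0.009. Prkg1, the cGMP-dependent protein kinase, measured 6.87, 6.60 and 6.91 on the antagonist arrays and 7.03 and 7.07 on the sham arrays. Pde3a, a phosphodiesterase inhibited by cGMP, measured 7.60, 7.71 and 7.72 on the antagonist arrays and 7.79 and 7.89 on the sham arrays. Every antagonist heart was below both sham hearts for these genes, with differences of -0.25 ± 0.11 for Prkg1 and -0.16 ± 0.06 for Pde3a (SE; limma adjusted p 0.64 for each). Pde1c was also lower without overlap (-0.13 ± 0.06, SE), which made 3 of the 13 below (6.33% of tested genes). These genes were named for the smallest p of their list, a choice that favours groups without overlap. Pde2a, a phosphodiesterase stimulated by cGMP and singled out after its values were seen, was the 1 gene above (0.14 ± 0.08, SE). Of all tested genes 6.19% lay above.

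Clearance, storage and load genes differed by little. Of 6 clearance genes 3 were tested, and their differences were -0.09 for Mme, the peptide-degrading enzyme neprilysin, 0.07 for Ide, the insulin-degrading enzyme, and 0.13 for Dpp4. Of 11 convertase and granule genes 5 were tested, with 4 higher and a median of 0.05. Pcsk7 (0.05 ± 0.04, SE), Chga (0.15 ± 0.14, SE) and Pcsk5 (0.06 ± 0.09, SE) had the smallest p among them. Among 8 tested load-responsive muscle genes 7 were higher, with a median of 0.05, and the exception was Ankrd1, a stretch-responsive gene of heart muscle often raised together with Nppb. Ankrd1 measured 12.12, 12.27 and 12.18 on the antagonist arrays and 12.64 and 12.21 on the sham arrays. Sham replicate 1 was the highest and the groups overlapped (-0.24 ± 0.15, SE; limma adjusted p 0.64). Rcan1, a calcineurin inhibitor gene, differed by 0.17 ± 0.12 and Csrp3, a muscle LIM protein gene, by 0.11 ± 0.09 (SE). The 16 regulators of Nppa and Nppb had 6 higher and 10 lower, with a median of -0.07. Zfpm2, a cofactor of GATA4, was the one without overlap (-0.29 ± 0.12, SE), and it was at -0.13 without sham replicate 1. Mef2c differed by -0.39 ± 0.23 (SE; limma adjusted p 0.64) with overlapping groups. Sham replicate 1 alone was high for it, at 8.15 against 7.35 to 7.49 on the other arrays, and without that array the difference was -0.07. Myocd differed by -0.13 ± 0.08 (SE), also with overlap. Gata4 itself measured 7.70, 7.59 and 7.53 on the antagonist arrays and 7.62 and 7.80 on the sham arrays, with overlapping groups; it was singled out after its values were seen, for the GATA matches shown above. Tbx5, singled out in the same way, was highest on antagonist replicate 2 at 8.16, against 7.61 at most on the other arrays. That array was the highest for 2 of the 16 regulators (12.5%, against 14.8% of tested genes).

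**Figure D4:**
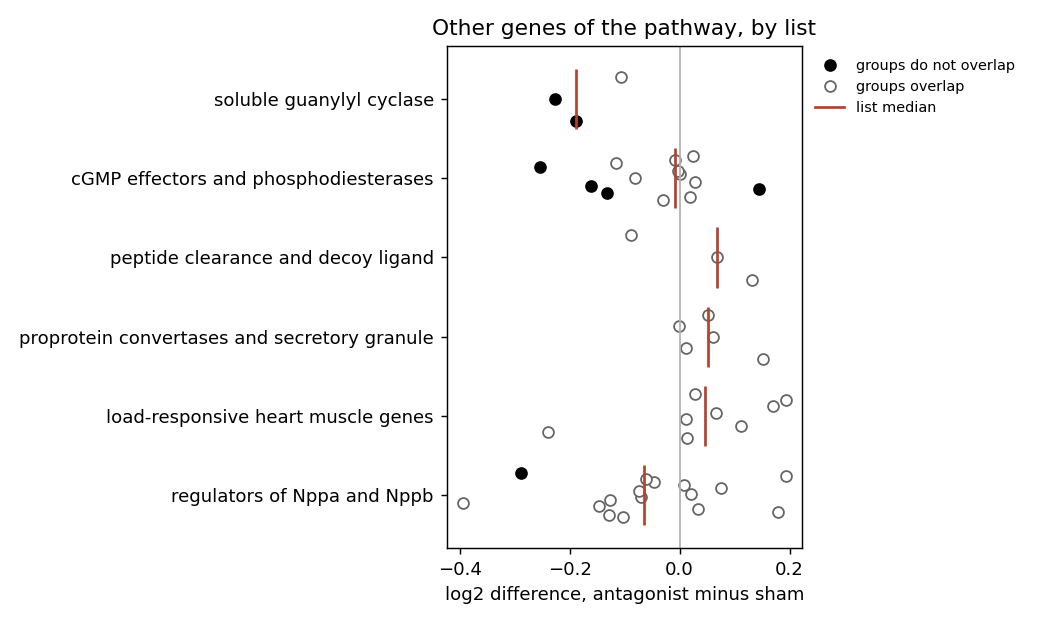
Log2 difference, antagonist minus sham, of the 48 tested genes in the 6 lists of other pathway genes. Filled points mark genes whose antagonist and sham values do not overlap, open points those that overlap, and red lines the list medians. The soluble guanylyl cyclase genes all lie left of 0, with a median of -0.19, while the medians of the other lists lie between -0.07 and 0.07.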

How the data were processed

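Total RNA of 5 mouse hearts was labelled from 300 ng with the manufacturer's kit, per the labels' protocols. The deposited values are log2 expression made by the authors with RMA (background correction, quantile normalization and median polish), per the submitters' processing notes; the sources used here do not give its version, probe library or genome build. Median polish over few arrays gives equal values: 73.9% of tested genes and 4 of the 9 members had fewer than 5 different values. Depth is not defined for arrays.

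Of 41345 probes, 23521 had 1 symbol in the platform annotation. The probe of highest mean was kept per symbol, and genes with a mean of at least 3.42 (the 40th percentile over probes) were tested with limma 3.58.1 in R 4.3.3 (lmFit, eBayes, no covariates, 3 residual and 0.69 prior degrees of freedom). All 9 symbols matched RefSeq by Entrez identifier. The fit was tested on simulated normal values without ties, with planted changes larger than the difference of any member. That test does not show how well differences of the members' size would be found.

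The members and gene lists were chosen with earlier results of these data known. Named genes are the 9 members, the 3 genes of smallest p per pathway list and muscle markers. The 2 widest-ranging genes of other marker lists and the nearest profiles are also named. Adipoq, Muc16, Mef2a, Vasp and the genes flanking Nppb and Nppa were named outside this rule. Other exceptions are marked where they occur. The 12 marker lists also covered pacemaker, fibroblast, smooth muscle, myeloid, nerve and erythroid genes. Median differences were 0.03 for 4 pacemaker, -0.20 for 8 fibroblast, -0.10 for 5 smooth muscle and 0.07 for 7 myeloid genes. For nerve only Prph was tested (0.0076), and no erythroid gene had a probe with its symbol alone. Alternatives covered level filter, normalization, probe choice, variance model, weights, ties, a replicate block and each array left out.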

Additional observations from a re-analysis of the deposited data

How the results depend on the processing

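Across 14 alternatives 0 of the 9 members passed limma's adjusted threshold. Nppb stayed higher in the antagonist hearts in all 14. Because its groups did not overlap, no omission of a single array could turn its sign. The level filters, the probe choice and the variance model could not change its difference of 0.37. The 14 are therefore not separate tests of its direction. With single arrays left out, the count of genes past the threshold ranged from 0 to 2058 (1319 without sham replicate 1 and 2058 without sham replicate 2), that of pathway genes from 0 to 5, and that of members higher with the antagonist from 4 to 8. Of the 8 pathway calls against a lone sham array, which is assumed to vary like the antagonist arrays, 6 had tied antagonist values, and those of Mef2c and Gucy1b1 did not. Pcsk5, equal on all antagonist arrays, was called lower (-0.07) without sham replicate 2 and higher (0.19) without sham replicate 1. The others called were Pcsk7, Csrp3, Mef2a and Mef2c without sham replicate 2, and Gucy1b1 and Vasp without sham replicate 1. Among genes with 5 different values 4 members were higher, since fewer members were tested. Over the same omissions the log2 difference ranged from -0.044 to 0.59 for Nppa, -0.10 to 0.40 for Npr3, -0.042 to 0.046 for Nppc and -0.048 to 0.043 for Npr1. The sign turned for Nppa without antagonist replicate 2 (-0.044) and for Npr3 without it (-0.10) or without sham replicate 1 (-0.0024). It also turned for 2 members with differences near 0. Nppc was at -0.0041 with array weights, -0.042 with the replicate block or without antagonist replicate 3, -0.0034 without sham replicate 2 and -0.00072 without antagonist replicate 2. Npr1 was at 0.00029 with each array centred, 0.055 as the mean of its probes, 0.0021 with the replicate block or without antagonist replicate 3, 0.0060 without sham replicate 1 and 0.043 without antagonist replicate 1. The cause was not tested. The replicate numbers are shared labels with no stated pairing. Correlations of same-numbered deviations were -0.11 and 0.03, and with 2 sham arrays crossing the pairs only turns their sign. With the numbers as a block Nppb differed by 0.45, 7 members were higher and 0 genes passed (754 at a limma unadjusted p under 0.05). Antagonist replicate 3 has no sham array of its number, so the block differences equal those without that array. The number of arrays and ties limit what could be seen.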

Other observations

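The genes that flank Nppb and Nppa on chromosome 4 were looked up in RefSeq by their order, a choice made with the members' values known, and 7 of the 8 nearest protein-coding genes were tested. Fv1, a retrovirus restriction gene at the outer edge of that window, measured 6.81, 7.05 and 7.10 on the antagonist arrays and 6.66 and 6.57 on the sham arrays. Every antagonist heart was above both sham hearts (6.19% of tested genes), and its log2 difference of 0.37 ± 0.11 (SE; limma adjusted p 0.64) was as large as that of Nppb. Plod1, a collagen-modifying enzyme gene, differed by 0.32 ± 0.19 and Mfn2, a mitochondrial fusion gene, by 0.13 ± 0.16 (SE), both with sham replicate 1 lowest. Clcn6, the neighbour of Nppa, differed by 0.13 ± 0.09, Agtrap by -0.14 ± 0.09, Draxin by 0.11 ± 0.08 and 2510039O18Rik, the neighbour of Nppb, by -0.04 ± 0.01 (SE). 2510039O18Rik measured 7.61 on all antagonist arrays, below both sham arrays at 7.66 and 7.64 (6.33% of tested genes), the opposite direction to Nppb. None of the 7 passed limma's adjusted threshold over all genes, as 0% of tested genes did.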
